A study of Mus musculus with 2 samples.

Results

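DNA methylation was compared around 53 developmental transcription factor genes, the non-Hox homeobox genes of the sine oculis (Six2 and relatives), Dlx, Irx, Lhx, Pitx, Alx, Msx, Emx, En, Otx, Shox, Barx, Isl and Lmx groups together with the Pax genes. A region belonged to a gene when it overlapped the RefSeq span of that gene extended by 10 kb on each side. By this rule 47 of the 28141 differentially methylated regions listed by the authors lay at 20 of the 53 genes, and 34 of the 47 lay in a span or within 2 kb of one. The 13 beyond 2 kb belonged to Emx2 (4), Otx1 (2) and, with 1 each, Dlx2, Dlx4, Lhx3, Alx1, Alx4, En2 and Isl2. One library came from PDGFRα+ (CD140+) adipocyte progenitors and the other from CD137+ adipocyte progenitors, both of C57BL/6 mice. PDGFRα is the platelet-derived growth factor receptor used to mark mesenchymal progenitors, and CD137 (Tnfrsf9), a costimulatory receptor, marks beige precursors. Cells of both kinds were purified from subcutaneous or visceral fat on magnetic columns, grown, put through an adipogenic cocktail and given 1 µM dexamethasone, a synthetic glucocorticoid, so that no library lacks the drug. The labels do not say which depot or how many mice gave each library. Each group had 1 library, so no difference has a replicate check, no test between groups was made and no p-value is given. The table gives no read counts, so the depth behind a level is unknown. A level is the fraction of a region's cytosines read as methylated, from 0 to 1. In DNA from many cells, a different mixture of cells and a different level within cells cannot be told apart.

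Homeobox genes encode transcription factors that bind DNA through a homeodomain and give cells their position and lineage during development. Pax proteins bind through a paired domain, which some of them combine with a homeodomain. Many of these genes lie in stretches rich in CG pairs and are held silent by Polycomb complexes in tissues that do not use them, and DNA methylation within such stretches is known to differ between tissues and between fat depots.

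More regions of the homeobox and Pax genes were higher than lower, while most regions of the whole list were lower, and 4 genes gave most of the higher ones. Of their 47 regions, 30 were higher and 17 lower in PDGFRα+ cells, a share of 63.8% higher (95% Wilson interval 49.5 to 76.0, for counting error only and with regions taken as independent). Over all listed regions 22.3% were higher, and over those within 10 kb of a protein-coding gene 25.4% were. Of the 34 regions in or within 2 kb of a span, 22 were higher. The median difference, PDGFRα+ minus CD137+, was 0.38 over the 47 regions (95% binomial interval -0.40 to 0.49, which spans 0) and -0.49 over all listed regions. The number of genes with a region did not stand apart, since 20 of 53 genes (37.7%) had one against 38.4% of all 21887 protein-coding genes. Within 2 kb, 16 of 53 genes (30.2%) had a region against 29.5%. Regions were denser per Mb of span plus flanks, 19.3 at the 53 genes against 13.4 at all protein-coding genes. Median spans were 10049 and 17169 bases. Of the 47 regions 22 lay at only 4 genes, so the density was uneven over the 53. Direction also differed from the background. Every region was higher in 8 genes and lower in another 8, while 2 more genes held mostly higher regions and 2 were split. In all, 10 genes (18.9%) were mostly higher, against 8.36% of protein-coding genes, and 8 (15.1%) were mostly lower, against 26.9%. Per Mb of span plus flanks, the 53 genes held 12.3 higher and 6.99 lower regions, while all protein-coding genes held 3.42 higher and 10.02 lower regions.

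The excess of higher regions was concentrated. Emx2, Pax8, Alx4 and Isl1 together held 22 of the 47 regions and 19 of the 30 higher ones. Without these 4 genes, chosen after their counts were seen, 11 of 25 regions (44.0%) were higher and the median difference was -0.40. Among the other 49 genes, 6 (12.2%) were mostly higher and 8 (16.3%) mostly lower. The densities per Mb given above include the 4 genes and were not computed without them.

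**Figure D1:**
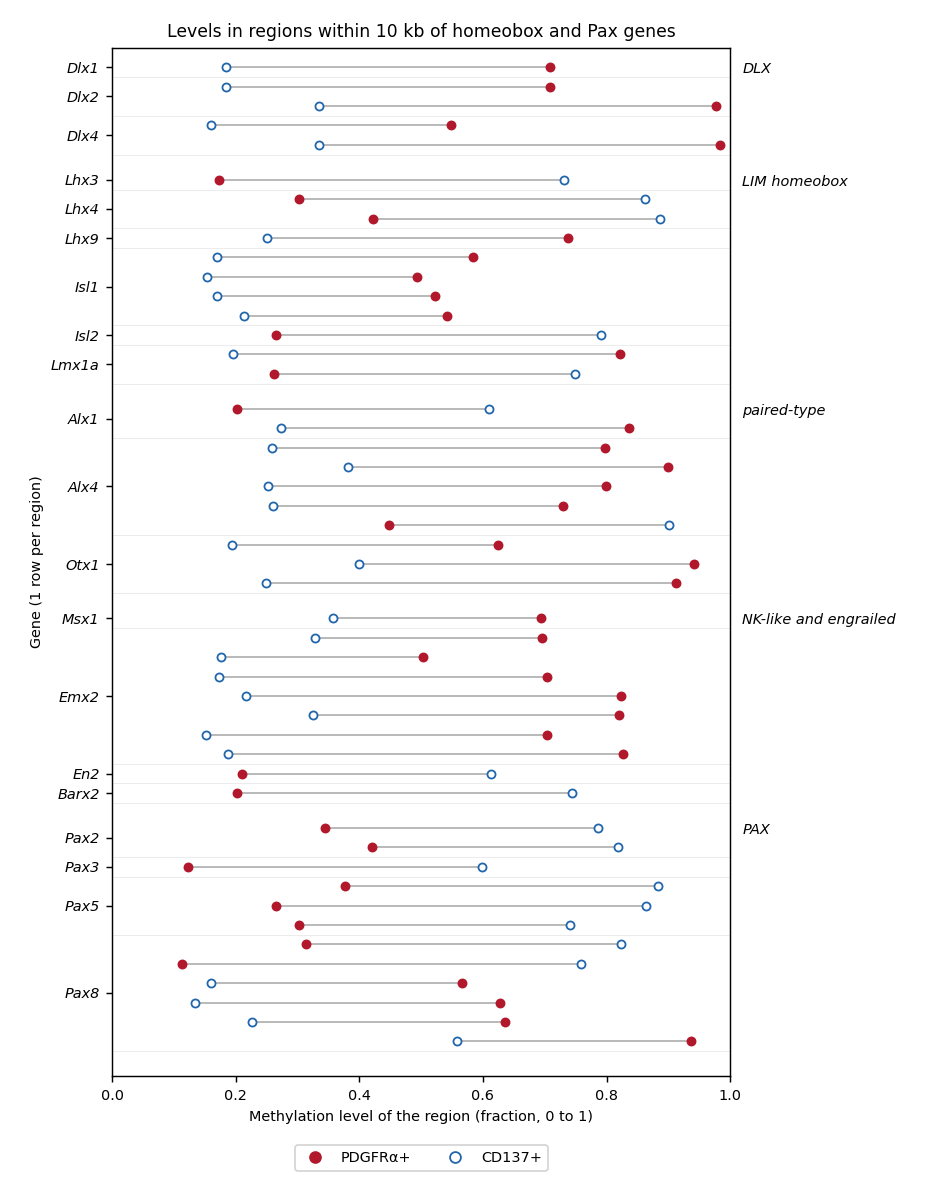
Methylation level (fraction) of every region within 10 kb of a member gene, 1 row per region, filled points for PDGFRα+ and open points for CD137+, with genes grouped by family. The rows of Emx2 and Isl1 all have the filled point to the right, those of Pax2, Pax3 and Pax5 all have it to the left, and the region shared by Dlx1 and Dlx2 is drawn in both.

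Direction varied between the families, given here as counts with no test. All 4 regions of the DLX genes were higher in PDGFRα+ cells, as were 8 of 10 regions of the paired-type genes, where Alx4 and Otx1 were mostly higher and Alx1 was split. In the NK-like and engrailed group 8 of 10 regions were higher, but 7 of these belonged to Emx2, and by gene 2 were mostly higher (Emx2, Msx1) and 2 mostly lower (En2, Barx2). The LIM homeobox genes, whose products carry LIM domains for partner binding, held 6 higher regions, 4 of them at Isl1, and 5 lower ones, with 2 genes mostly higher, 3 mostly lower and 1 split. The PAX genes held 4 higher regions, all at Pax8, and 8 lower ones, with 1 gene mostly higher and 3 mostly lower and a median difference of -0.44. The 5 sine oculis and 6 Iroquois (Irx) genes held none. That includes Irx3 and Irx5, genes studied for their part in adipocyte thermogenesis, whose nearest listed regions lay 89873 and 53089 bases away.

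The starts of 5 genes are shown to give the reference sequence beside which their regions lay. They are 4 genes with several mostly higher regions and a window in the table, and Pax5 as the gene with the most regions that were all lower. Each is a window of 250 bases before and 50 after an annotated start (RefSeq, GRCm38.p6, the assembly of mm10), written 5′ to 3′ on the strand of the gene with CG pairs in capitals. The windows are chr19:59458440-59458739 on the plus strand for Emx2, chr13:116309639-116309938 on the minus strand for Isl1, chr2:24475550-24475849 on the minus strand for Pax8, chr2:71546705-71547004 on the minus strand for Dlx2 and chr4:44710645-44710944 on the minus strand for Pax5.
Emx2: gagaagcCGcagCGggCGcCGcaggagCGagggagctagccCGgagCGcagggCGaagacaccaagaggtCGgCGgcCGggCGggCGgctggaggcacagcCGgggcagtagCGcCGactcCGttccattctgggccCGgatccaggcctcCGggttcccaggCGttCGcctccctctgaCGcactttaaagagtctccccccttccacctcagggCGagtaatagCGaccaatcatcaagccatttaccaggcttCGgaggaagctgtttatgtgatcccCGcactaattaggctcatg
Isl1: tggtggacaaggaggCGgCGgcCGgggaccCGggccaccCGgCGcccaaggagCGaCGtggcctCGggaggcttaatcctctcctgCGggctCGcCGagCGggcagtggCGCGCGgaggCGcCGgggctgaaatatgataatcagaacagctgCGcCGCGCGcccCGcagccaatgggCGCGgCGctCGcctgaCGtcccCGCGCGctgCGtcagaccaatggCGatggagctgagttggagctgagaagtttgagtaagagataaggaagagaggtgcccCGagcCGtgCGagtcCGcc
Pax8: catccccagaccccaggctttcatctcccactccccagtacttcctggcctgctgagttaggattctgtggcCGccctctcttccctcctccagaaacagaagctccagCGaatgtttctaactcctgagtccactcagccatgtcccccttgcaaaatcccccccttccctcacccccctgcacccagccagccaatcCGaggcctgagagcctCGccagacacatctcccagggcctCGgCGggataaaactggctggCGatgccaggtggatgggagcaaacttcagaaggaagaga
Dlx2: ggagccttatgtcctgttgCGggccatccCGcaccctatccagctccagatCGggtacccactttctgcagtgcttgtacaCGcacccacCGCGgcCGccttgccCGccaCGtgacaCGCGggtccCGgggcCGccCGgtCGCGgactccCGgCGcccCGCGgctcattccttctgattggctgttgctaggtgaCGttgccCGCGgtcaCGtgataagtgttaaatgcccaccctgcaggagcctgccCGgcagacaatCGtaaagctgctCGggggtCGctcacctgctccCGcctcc
Pax5: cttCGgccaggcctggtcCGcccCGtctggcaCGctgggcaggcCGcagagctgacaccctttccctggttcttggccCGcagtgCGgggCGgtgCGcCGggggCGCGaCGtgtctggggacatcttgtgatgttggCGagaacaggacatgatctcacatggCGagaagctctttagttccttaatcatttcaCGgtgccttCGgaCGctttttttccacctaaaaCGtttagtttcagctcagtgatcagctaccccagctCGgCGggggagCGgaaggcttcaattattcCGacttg
The Emx2, Isl1, Dlx2 and Pax5 windows held 26, 37, 29 and 23 CG pairs, and the Pax8 window held 7. The median over all 32851 windows in the table was 7 CG pairs, and over the 48 windows of 37 members it was 18.5. At least 10 CG pairs were present in 87.5% of the members' windows and 43.5% of all windows. The homeodomain core TAAT, searched on both strands as TAAT or ATTA, was present in 52.1% of the members' windows and 58.0% of all windows. No listed region overlapped a window of any member that has one in the table. Such overlap was rare over the whole list too. Of all 28141 regions, 240 had their first base and 232 their last base in any window. The absence therefore does not set the members apart. The nearest approach was at Pax8, 210 bases from the window. At the 4 other genes printed the nearest region lay 2039 (Dlx2), 4309 (Emx2), 10644 (Isl1) and 64275 (Pax5) bases from the window.

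In the members with an annotated start, higher regions lay mostly nearer to it than lower ones. Measured from the centre of a region to the nearest annotated start of its gene, the 21 higher gene and region pairs had a median distance of 5492 bases and a range of 502 to 14457. The 12 lower pairs had a median of 40737 bases and a range of 13950 to 181718, so the ranges overlapped narrowly. The higher pair at 14457 is the region in the span of Dlx2, counted also at Dlx1. Within 10 kb of a start lay 15 of the 21 higher pairs and 0 of the 12 lower ones, and within 20 kb 21 and 3. Emx2, Isl1 and Pax8 supplied most of the higher pairs. Without these 3 genes the 6 remaining higher pairs had a median of 3093 bases and the 10 lower pairs 44244. Of the higher pairs 17 lay downstream of the start and 4 upstream, while every lower pair lay downstream. For all protein-coding genes with a window the medians were 15300 bases for higher and 29064 for lower pairs, and 40.8% of higher and 28.4% of lower pairs lay within 10 kb. Gene length moved with direction as well, since the mostly higher members had a median span of 6778 bases and the mostly lower ones 60469. A short gene cannot have a distant region, since the rule reaches only 10 kb beyond its span. The part of gene length in the difference of distances was not tested.

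**Figure D2:**
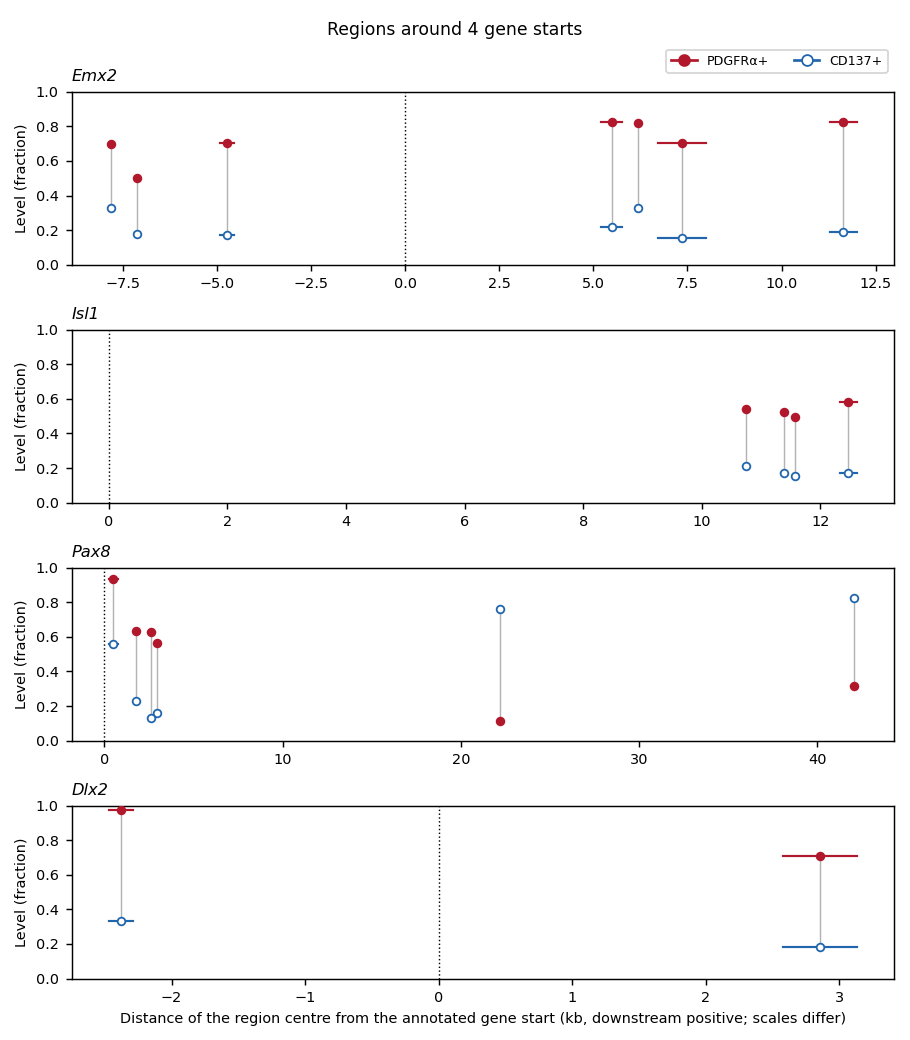
Methylation level (fraction) against distance from the annotated start (kb, downstream positive, each panel with its own scale) for Emx2, Isl1, Pax8 and Dlx2, with filled points for PDGFRα+, open points for CD137+ and horizontal lines for the length of a region. The 4 higher regions of Pax8 lie near its start and the 2 lower ones at 22198 and 42042 bases.

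Emx2, which encodes a factor of forebrain and urogenital development, had the most regions of any member and every one was higher in PDGFRα+ cells. Its 7 regions (chromosome 19, gene span 59458690 to 59465357 in mm10) had levels of 0.503 to 0.827 in PDGFRα+ cells and 0.152 to 0.328 in CD137+. The ranges did not overlap, and the means were 0.725 in PDGFRα+ and 0.223 in CD137+. The regions lay on both flanks of the start. Of the 7, 3 lay 4734 to 7810 bases upstream, inside the antisense gene Emx2os, and 4 lay 5492 to 11638 bases downstream. The region with the largest statistic, 59453782 to 59454131, had levels of 0.703 in PDGFRα+ cells and 0.173 in CD137+. Only 3 of the 7 lay in the span or within 2 kb. The antisense gene shares the upstream regions, so they cannot be assigned to Emx2 alone.

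Isl1, a LIM homeobox gene of heart, motor neuron and pancreatic islet development, held 4 regions, all higher. They sat together at the downstream end of the gene (chromosome 13, 116297073 to 116298995), 2 inside the span and 2 within 913 bases of it. Levels were 0.494 to 0.584 in PDGFRα+ cells and 0.154 to 0.214 in CD137+, so PDGFRα+ cells were near the middle of the scale in each. The region with the largest statistic, 116297073 to 116297357 with 26 cytosines, measured 0.584 in PDGFRα+, against 0.170 in CD137+. Of 1444 protein-coding genes with at least 4 regions within 10 kb, 41 (2.84%) had every region higher, and 2 of the 4 members with that many did, Emx2 and Isl1.

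Alx4, a paired-type gene of limb and skull patterning, held 4 higher regions and 1 lower one on chromosome 2. The 4 higher regions lay between 93640476 and 93647124, around the lower-coordinate end of the span, and all within 2 kb of it. The lower region, 93688874 to 93689036, lay 7533 bases beyond the other end. That region is nearer to another gene, Ext2, at 6595 bases. Over the 5 regions levels ranged from 0.449 to 0.899 in PDGFRα+ cells and from 0.252 to 0.901 in CD137+. The region with the largest statistic, 93646503 to 93647124 with 35 cytosines, had levels of 0.730 in PDGFRα+ cells and 0.260 in CD137+.

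Pax8, a gene of thyroid and kidney development, changed direction along its length. The 4 regions 502 to 2955 bases downstream of its start were higher in PDGFRα+ cells and the 2 regions 22198 and 42042 bases downstream were lower (chromosome 2, span 24420551 to 24475599). In the higher regions nearest to farthest from the start, levels in PDGFRα+ were 0.937, 0.635, 0.627 and 0.566, against 0.558, 0.227, 0.133 and 0.159 in CD137+. The 2 lower regions, again from the nearer one, measured 0.113 and 0.314 in PDGFRα+ cells, but 0.759 and 0.824 in CD137+ cells. The nearer of these 2 lies also inside the noncoding RNA gene Gm13415. The region nearest the start, 24474853 to 24475340, had the largest statistic of the gene.

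The distal-less genes, which pattern the face, limbs and forebrain interneurons, had regions at Dlx1, Dlx2 and Dlx4. Dlx2 held a region in its span, chromosome 2 from 71543625 to 71544179 with 30 cytosines, with levels of 0.708 in PDGFRα+ cells and 0.185 in CD137+. The same region is the only one of Dlx1, 9644 bases outside that gene, so the pair counts it once. A further region of Dlx2, 2289 bases outside its span, measured 0.977 in PDGFRα+, against 0.335 in CD137+. Dlx4 on chromosome 11 had a region in its span with levels of 0.549 in PDGFRα+ cells and 0.160 in CD137+, and one 6525 bases outside it with 0.984 in PDGFRα+ and 0.335 in CD137+. The outer one lies inside the noncoding RNA gene Dlx4os. The outer regions of Dlx2 and Dlx4 each held 4 cytosines, the smallest count in the list, and share their length and CD137+ level. The paired genes Dlx5 and Dlx6 and the gene Dlx3 had none.

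Otx1, a gene of forebrain and sense organ development, held 3 higher regions on chromosome 11. The one in its span, 21999550 to 21999922, had levels of 0.625 in PDGFRα+ cells and 0.193 in CD137+, and it lies also inside the noncoding RNA gene Gm32517. The others lay 3665 and 5905 bases outside, with levels of 0.942 and 0.913 in PDGFRα+ cells against 0.399 and 0.249 in CD137+. The last of these, 22007556 to 22008774, held 53 cytosines and showed the largest difference of all 47 regions, 0.66. It lies inside the neighbouring gene Ehbp1, so its place at Otx1 rests on the 10 kb flank. The region 3665 bases outside Otx1 is also nearer to Ehbp1, at 360 bases.

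Single higher regions lay in Lhx9, a gene of gonad development, and in Msx1, a gene of tooth, palate and limb development. Levels were 0.737 in PDGFRα+ cells and 0.250 in CD137+ at Lhx9, 3938 bases downstream of its start. At Msx1 they were 0.694 in PDGFRα+ and 0.358 in CD137+, in a region of 87 bases that lies also at the antisense gene Msx1os. Alx1, a paired-type gene of the facial skeleton, and Lmx1a, a gene of the roof plate and midbrain dopamine neurons, each had 1 region of either direction. In Alx1 the higher region lay in the span (0.836 in PDGFRα+, 0.274 in CD137+) and the lower one 7080 bases outside (0.202 in PDGFRα+, 0.609 in CD137+). In Lmx1a the higher region lay 3060 bases downstream of the start (0.822 in PDGFRα+, 0.195 in CD137+) and the lower one 13950 bases downstream (0.262 in PDGFRα+, 0.7497 in CD137+).

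The genes with only lower regions were mostly long or had a single region in a flank. Pax5, the B-cell commitment factor, held 3 lower regions within its 185947 base span, with levels of 0.376, 0.265 and 0.302 in PDGFRα+ cells against 0.884, 0.863 and 0.741 in CD137+. Pax2, a kidney and eye gene, held 2, with levels of 0.344 and 0.420 in PDGFRα+ cells against 0.786 and 0.818 in CD137+. Pax3, a gene of muscle and neural crest precursors, held 1, at 0.122 in PDGFRα+ and 0.599 in CD137+. Lhx4, which acts in the pituitary, held 2 in its span (0.302 and 0.422 in PDGFRα+, 0.863 and 0.886 in CD137+). Its relative Lhx3 had 1 region 8410 bases outside (0.172 in PDGFRα+, 0.731 in CD137+). Barx2, a gene of muscle and cartilage development, had 1 in its span (0.201 in PDGFRα+, 0.744 in CD137+). Regions 7026 bases from En2, a cerebellar patterning gene, and 9445 bases from Isl2, a motor neuron gene, measured 0.210 and 0.264 in PDGFRα+ cells, but 0.614 and 0.791 in CD137+ cells. The region at En2 lies inside the noncoding RNA gene Gm42242, and that at Isl2 inside another gene, Scaper.

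The 33 members without a region were Six2, Six3, Six4, Six5, Six6, Dlx3, Dlx5, Dlx6, Irx1, Irx2, Irx3, Irx4, Irx5, Irx6, Lhx1, Lhx2, Lhx5, Lhx6, Lhx8, Pitx1, Pitx3, Msx2, Emx1, En1, Otx2, Shox2, Barx1, Lmx1b, Pax1, Pax4, Pax6, Pax7 and Pax9. Their nearest listed regions lay 13635 to 172810 bases away, with a median of 45755. For 5 of the 33 the nearest region was higher in PDGFRα+, while 22.3% of all listed regions were. These nearest regions are not all distinct, since Six2 and Six3 share theirs. That of Dlx3 is the region in the span of Dlx4. A gene without a region may have equal levels, may differ by too little to be listed under the authors' unnamed thresholds, or may have lacked coverage. The table does not separate these. At the edge of the 10 kb rule, the last region inside, at Dlx1, had levels of 0.708 in PDGFRα+ cells and 0.185 in CD137+. The first one outside, 11197 bases from Lhx3, had 0.9504 in PDGFRα+ and 0.375 in CD137+. Between 10 and 20 kb from a member lay 7 further regions, 3 higher and 4 lower.

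The higher regions of these genes reached lower levels in both libraries than higher regions did across the list. The median was 0.719 in PDGFRα+ cells and 0.221 in CD137+, against 0.879 in PDGFRα+ and 0.344 in CD137+ over all 6271 higher regions. A level under 0.75 in PDGFRα+ was found in 17 of 30 (56.7%) against 11.5% of all higher regions. A level under 0.2 in CD137+ was found in 13 of 30 (43.3%) against 10.7%. Among higher regions at the Hox and T-box genes, set out below, 37.0% and 23.5% were under 0.75 in PDGFRα+. Under 0.2 in CD137+ were 22.2% and 11.8%. Most of the 17 lay at Emx2, Isl1 and Pax8, with those of Isl1 close together. The median difference was 0.49 at the members and 0.51 over all higher regions. The lower regions had median levels of 0.265 in PDGFRα+ cells and 0.786 in CD137+, against 0.261 in PDGFRα+ and 0.820 in CD137+ over all 21870 lower regions. Higher regions held a median of 14 cytosines at the members (binomial interval 8 to 18) and 9 over the list, which that interval covers. In cytosines per 100 bases the medians were 5.52 and 5.06, and the binomial interval for the members, 4.26 to 6.45, covers the second value.

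**Figure D3:**
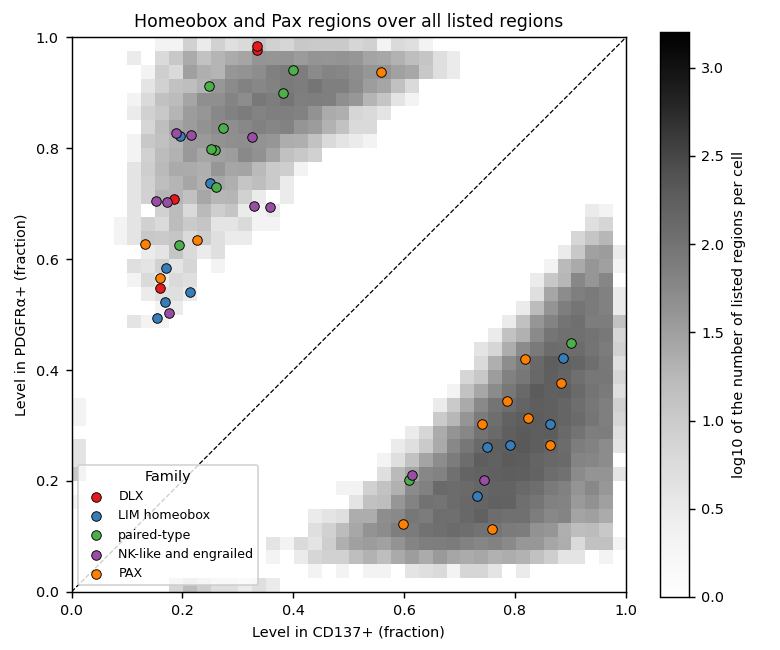
Level in PDGFRα+ (vertical) against level in CD137+ (horizontal), both as fractions, for the 47 regions coloured by family, over the log10 number of all 28141 listed regions in grey. The dashed line marks equal levels, and 17 of the 30 points above it lie under 0.75 on the vertical axis, where 11.5% of all higher regions lie.

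Other developmental gene families were set beside these genes as counts, with no test. The 39 Hox genes held 44 regions, 27 of them higher (61.4%), and the 13 T-box genes analysed here held 20, of which 17 were higher (85.0%). Higher regions came to 52.2 per Mb at the Hox genes, which lie in compact clusters and share regions, and to 25.0 per Mb at the T-box genes. In the higher regions the median levels at the T-box genes were 0.862 in PDGFRα+ cells and 0.302 in CD137+, and at the Hox genes 0.791 in PDGFRα+ and 0.262 in CD137+.

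The genes of the same developmental networks ran mostly in the direction of the whole list. Eya and Dach proteins act with sine oculis factors, Ldb and Lmo proteins with LIM homeodomain factors, Tle proteins are corepressors, and Bmp, Shh, Fgf8 and Gli genes belong to the signals above them. Of 22 such genes 17 had a region (77.3%, against 38.4% of all protein-coding genes). Of the 22, 14 were mostly lower (63.6%, against 26.9%), 1 was mostly higher (4.55%, against 8.36%) and 2 were split. Higher regions made up 9 of their 57 (15.8%), against 25.4% of regions within 10 kb of a protein-coding gene. The 22 genes are longer, with a median span of 88393 bases against 10049 for the members and 17169 for all protein-coding genes. Gli3, a hedgehog effector, was lower in 5 of 5 regions, with mean levels of 0.241 in PDGFRα+ cells and 0.797 in CD137+. Dach1 was lower in 5 of 5 (0.393 in PDGFRα+, 0.814 in CD137+) and Eya2 in 10 of 12 (0.388 in PDGFRα+, 0.736 in CD137+). Bmp2, a bone morphogenetic protein, was the gene that was mostly higher, in 2 of 2 regions (0.809 in PDGFRα+, 0.354 in CD137+).

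**Figure D4:**
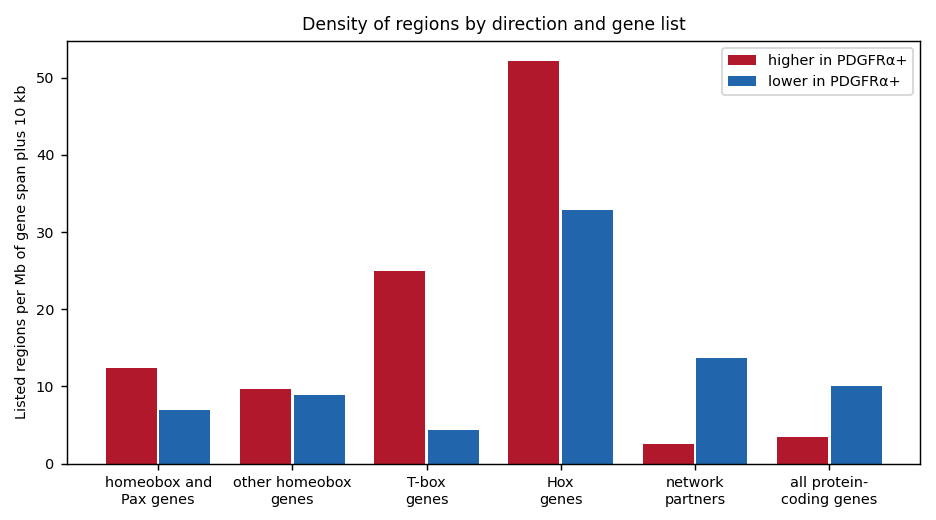
Listed regions per Mb of gene span plus 10 kb on each side, as bars for regions higher and lower in PDGFRα+, for 6 gene lists. The homeobox and Pax genes stand at 12.3 higher and 6.99 lower regions per Mb, and all protein-coding genes at 3.42 higher and 10.02 lower. The bars of the homeobox and Pax genes include Emx2, Pax8, Alx4 and Isl1, which held 22 of their 47 regions.

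Markers of other cell types that sorted fractions could hold also carried regions. Regions were higher in PDGFRα+ in 21 of 34 at 12 immune markers and 10 of 15 at 6 endothelial markers. At 6 mural markers 0 of 7 were higher, and at 5 mesothelial markers 2 of 15. The share was 22.3% over all listed regions and 25.4% over those within 10 kb of a protein-coding gene. Among the immune markers 4 were mostly higher, 4 mostly lower and 2 split. Among the endothelial markers 4 were mostly higher and 2 (Tek and Emcn) mostly lower. Of the mural and mesothelial markers none was mostly higher, while 5 and 4 were mostly lower. The part of such cells in the levels at the homeobox and Pax genes was not tested.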

How the data were processed

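Whole-genome bisulfite sequencing was done on 1 PDGFRα+ and 1 CD137+ library. The authors deposited 1 table of differentially methylated regions on mm10, the build named in the submitters' processing notes. Its levels are fractions computed by the authors (0 to 1), and its area statistic is a score deposited by the authors, used here only to rank regions of a gene. The difference was computed as PDGFRα+ minus CD137+ and equals the deposited one within 0.0002 in all 28141 regions. The sources used here, with no paper among them, name neither aligner, callers, thresholds nor a coverage minimum. Only regions called as different are listed, so shares describe those regions.

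Deposited starts count from 0. Taken as start plus 1, all 240 first bases that fall in RefSeq promoter windows lie on a CG pair, as do all 232 last bases, against 33.3% of first bases taken as deposited. Positions are printed from 1. Cytosines of both strands are counted, since 65 of 80 regions inside a window (81.2%) list more cytosines than CG pairs.

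All 53 symbols matched RefSeq spans (GRCm38.p6). Strand came from the promoter table, which has windows for 13 of the 20 members with a region, so distances to starts cover these only. Exons were not used. A gene is called mostly higher (or lower) where its higher (or lower) regions outnumber the rest. Every member with a region is named, with each region's levels where it has up to 3, and otherwise the range and the region with the largest statistic. The further regions of Pax8 and the examples from comparison lists were picked with their values known. The members and lists were chosen with earlier results of these data known. The comparison list of other homeobox genes matched 42 of 43 symbols. The overlap search was tested on simulated data and against a brute-force search. Intervals are 95% and cover counting error only. Figures were drawn with matplotlib 3.10.9, intervals came from scipy 1.17.1, and tables were handled with pandas 2.3.3 and numpy 2.4.6 in Python 3.11.15.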

Additional observations from a re-analysis of the deposited data

How the results depend on the processing

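Under 8 other settings and 2 more added after these results were seen, the share of higher regions stayed between 44.0% and 75.0%. Under the same filters or merging, 20.3% to 22.2% of all listed regions were higher, and with a 2 kb flank or spans only 25.3% and 24.8% of the regions at protein-coding genes were. The number of regions was 22 with differences of at least 0.5, 24 with at least 10 cytosines, 24 with area statistics above the median, 29 with gene spans only and 25 without Emx2, Pax8, Alx4 and Isl1. The number of mostly lower members was 4 with at least 10 cytosines and with larger statistics, and 5 with a 2 kb flank, with spans only and without the PAX family, whose construction leaves fewer regions or genes. With differences of at least 0.5 the median difference was 0.53. Without the 4 genes with most regions, the share was 44.0%, the mostly higher members numbered 6, and the median difference reversed to -0.40. Its interval over the 47 regions, -0.40 to 0.49, spans 0. A change of its sign means only that the other direction then held more regions. Merging neighbours of the same direction gave 36 regions, 52.8% of them higher. No paired analysis was possible because each group had 1 library. Depth is unknown, so the precision of single levels cannot be given.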

Other observations

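A further 42 homeobox genes outside the list above held 25 regions at 13 genes, 13 higher and 12 lower in PDGFRα+ (52.0% higher), with 6 genes mostly higher, 4 mostly lower and 3 split. Hlx, a homeobox gene of visceral mesenchyme, had 3 higher and 3 lower regions, and Prrx1, a gene of limb and mesenchymal progenitors, had 2 of each. Its relative Prrx2 was lower in 2 of 2 regions, with mean levels of 0.060 in PDGFRα+ cells and 0.474 in CD137+. Meox1, a somite gene, was higher in its only region (0.860 in PDGFRα+, 0.184 in CD137+), as was Nkx3-2, a gene of cartilage development (0.726 in PDGFRα+, 0.187 in CD137+). These examples were chosen after their values were seen.

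The outer regions of Dlx2 and Dlx4, on different chromosomes, share a length of 181 bases, a count of 4 cytosines and a CD137+ level of 0.335, while their PDGFRα+ levels are 0.977 and 0.984. In all, 48 listed regions (0.171%) share these 3 values with another region.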
